A study of Mus musculus with 6 samples.

Results

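The genes described here are 10 rapid immediate-early genes outside the *Fos*, *Jun*, *Egr* and *Nr4a* families: *Btg2*, *Ier2*, *Ier3*, *Ier5*, *Maff*, *Csrnp1*, *Cyr61*, *Gadd45b*, *Gadd45g* and *Trib1*. They were chosen by name, with earlier results of these data known. They were found in the gene table by their identifiers and make up 10 of its 53715 genes. All 10 were matched and all 10 passed the filter on low counts; the annotation lists *Cyr61* under its newer symbol *Ccn1*. The RNA came from the cerebellum of male mice at 4 weeks of age, 3 per genotype, labelled C57BL/6 and described in the study's methods as C57BL/6J. *Slc39a8*-NSKO mice carried floxed alleles of *Slc39a8*, which encodes a transporter of manganese, zinc and iron, and a *Synapsin I-Cre* transgene that acts in neurons, so that glia and vessels kept the gene. The sample labels call the 3 controls WT, and the study speaks of *Slc39a8* fl/fl controls in its results and of wild-type mice in parts of its methods; the files do not show which genotype was sequenced or whether any control carried the Cre transgene. The methods describe each library as 1 mouse, a figure legend speaks of technical triplicates, and p values measure only the spread between these libraries. In whole tissue, fewer cells of a type and less RNA per cell cannot be told apart.

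Immediate-early genes are switched on within minutes of a stimulus by transcription factors that are already present in the cell, such as CREB and SRF, without new protein being made first. Many of their RNAs are short-lived. In neurons synaptic activity and calcium entry are strong inducers, and in other cells growth factors, stretch and stress are. The best known members encode transcription factors of the Fos, Jun, Egr and Nr4a families. The 10 genes here lie outside those families and encode a secreted matrix protein, nuclear regulators, brakes on proliferation, stress adaptors and a pseudokinase.

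The libraries held 14431260 to 20844267 expected counts on genes. The targeted gene, *Slc39a8*, had 99, 46 and 44 counts in the controls and 38, 40 and 41 in *Slc39a8*-NSKO, or 3.60 ± 1.04 and 2.05 ± 0.138 CPM (counts scaled to a library of 1000000; SD, n = 3). Its normalized groups did not overlap and its log2 fold change was −0.83 (SE 0.24, adjusted p = 0.534 in edgeR's quasi-likelihood test), so the knockout was not called by this test in whole tissue. Of 16330 genes tested, 16 (0.098%) passed an adjusted p of 0.05, of which 12 were lower and 4 higher in *Slc39a8*-NSKO. That count was 38 without control 1 and 9 without *Slc39a8*-NSKO mouse 2. Of the 4 higher genes, 3 were heart muscle markers (*Myh6*, *Actc1* and *Tnnt2*), from a list of 8. The summed level of that list was 210 to 241 CPM in control and 212 to 241 CPM in *Slc39a8*-NSKO, nearly all of it *Ryr2*, and without *Ryr2* it was 2.63 to 4.73 and 13.4 to 14.7 CPM. The tissue carried the markers of cerebellar neurons, with 8 Purkinje cell markers at 7170 to 8020 CPM in control and 7740 to 8380 CPM in *Slc39a8*-NSKO.

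None of the 10 genes passed edgeR's test, and none passed with DESeq2 or limma-voom. In 8 of them the log2 fold change was below 0, that is, they had a lower mean level in *Slc39a8*-NSKO than in control cerebellum, and the median log2 fold change was −0.36, beside 0.0011 over all genes tested. In 6 of the 10, namely *Btg2*, *Ier2*, *Maff*, *Cyr61*, *Gadd45g* and *Trib1*, all 3 *Slc39a8*-NSKO values lay below all 3 control values (60%, against 5.26% of all genes tested). By the test itself, 6 genes were lower at an unadjusted p below 0.05 (60%, against 3.14% of all genes tested), with *Csrnp1* in place of *Maff*. No member was higher by either measure. Because the 10 genes were chosen with earlier results of these data known, these shares only describe them and are no test. The lowest adjusted p was 0.156, for *Gadd45g*. With no filter on low counts, *Btg2*, *Ier2*, *Cyr61* and *Gadd45g* passed (4 of 10, among 178 of 27187 genes). For the 6 genes without overlap the exact two-sided permutation test gives p = 0.1, the smallest that 3 mice against 3 allow.

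**Figure D1:**
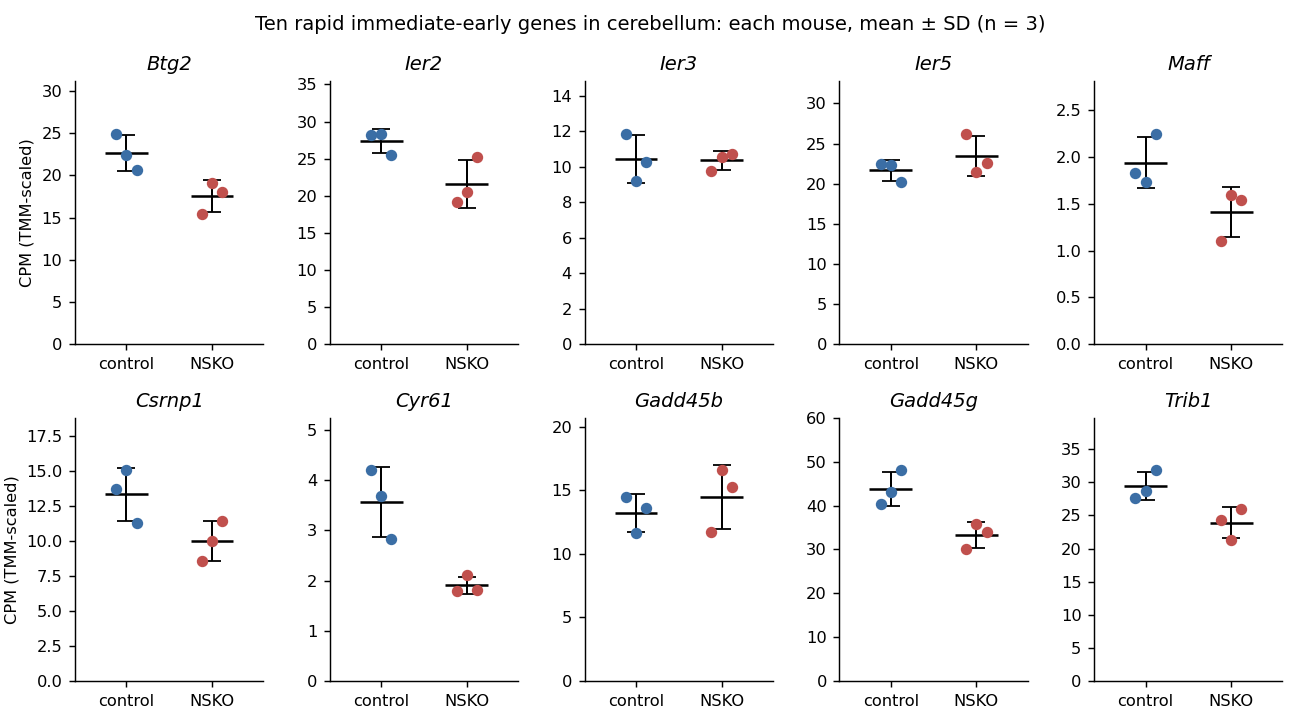
Level of each of the 10 genes in every mouse (points; CPM scaled by TMM normalization, axes starting at 0), with mean and SD of the 3 control and 3 *Slc39a8*-NSKO mice. The groups do not overlap for *Btg2*, *Ier2*, *Maff*, *Cyr61*, *Gadd45g* and *Trib1*, and they overlap for *Ier3*, *Ier5*, *Csrnp1* and *Gadd45b*.

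Per kilobase of exonic length, *Gadd45g* had the highest level of the 10 in control cerebellum, at 37.4 ± 3.35 CPM per kb (SD, n = 3). *Ier2* followed at 17.97 ± 1.05 CPM per kb. *Ier3* (9.23 ± 1.20), *Gadd45b* (8.33 ± 0.926) and *Btg2* (8.27 ± 0.791) came next, and neighbours among these 3 had overlapping control values. Below them stood *Ier5* (6.61 ± 0.394), *Trib1* (4.71 ± 0.342), *Csrnp1* (3.83 ± 0.551), *Cyr61* (1.77 ± 0.343) and *Maff* (0.748), none overlapping its neighbour in the controls. The order of the levels in *Slc39a8*-NSKO was the same except that *Ier5* (7.15 CPM per kb) stood above *Btg2* (6.39 CPM per kb).

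The secreted member is *Cyr61* (ENSMUSG00000028195, chr3:145646976-145649981, minus strand, GRCm38), which encodes a matrix protein that binds integrins and is a known target of YAP and SRF. It had the largest fold difference of the 10 genes. The control mice had 87, 53 and 44 counts of *Cyr61* (4.20, 3.69 and 2.83 CPM), and the *Slc39a8*-NSKO mice had 36, 41 and 34 (1.80, 2.11 and 1.81 CPM). All 3 *Slc39a8*-NSKO values lay close together and below the lowest control. The mean was 53.3% of control, with a log2 fold change of −0.91 (SE 0.22, 95% interval −1.39 to −0.43, unadjusted p = 0.00116, adjusted p = 0.321, edgeR). Its closest relative measured, *Ctgf*, another YAP target, had 6.72 ± 1.06 CPM in control and 6.57 ± 0.801 in *Slc39a8*-NSKO. Vessel cells are a known source of *Cyr61*; the summed level of the 10 endothelial markers was 189 to 218 CPM in control and 191 to 212 CPM in *Slc39a8*-NSKO, and that of 8 pericyte and smooth muscle markers was 172 to 188 and 166 to 200 CPM. None of these markers reached an unadjusted p of 0.05 (edgeR).

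Among the nuclear regulators, *Maff* (ENSMUSG00000042622, chr15:79346621-79359076, plus strand), a small Maf protein that pairs with NRF and BACH factors, was the least abundant. Counts of *Maff* were 38, 25 and 35 in control (1.83, 1.74 and 2.25 CPM) and 22, 31 and 29 in *Slc39a8*-NSKO (1.101, 1.59 and 1.54 CPM). The groups did not overlap, but the highest *Slc39a8*-NSKO value was near the lowest control. Its log2 fold change of −0.46 had an SE of 0.27 and a 95% interval from −1.05 to 0.13, so that with counts this low a difference of either sign was within the error. *Csrnp1* (ENSMUSG00000032515, chr9:119971163-119984658, minus strand), a nuclear protein induced by AXIN1, stood at 13.7, 15.0 and 11.2 CPM in control and at 8.56, 10.01 and 11.4 CPM in *Slc39a8*-NSKO. Control 3 lay just below *Slc39a8*-NSKO mouse 3, the only overlap, and the exact permutation p was 0.2. The log2 fold change was −0.41 (SE 0.14, unadjusted p = 0.00955, adjusted p = 0.765, edgeR). *Csrnp1* lies on the same strand as the overlapping *Cx3cr1*, a microglial receptor, and *1700019L13Rik* overlaps it on the opposite strand; the counts of *Csrnp1* and *Cx3cr1* were whole in all 6 mice. *Cx3cr1* had a log2 fold change of 0.18 (SE 0.11, adjusted p = 0.993, edgeR) with overlapping groups. Whether reads of the 2 genes were confused was not tested.

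*Ier2* (ENSMUSG00000053560, chr8:84661331-84662852, minus strand) and *Ier5* (ENSMUSG00000056708, chr1:155096361-155099636, minus strand) encode related nuclear proteins; IER5 is known to act with the heat shock factor HSF1. The levels of *Ier2* were 28.2, 28.4 and 25.5 CPM in control and 19.1, 20.5 and 25.3 CPM in *Slc39a8*-NSKO. *Slc39a8*-NSKO mouse 3 reached almost the level of control 3, while the other 2 were clearly lower. The log2 fold change was −0.34 (SE 0.10, unadjusted p = 0.00483, adjusted p = 0.612, edgeR). *Ier5* was measured at 22.5, 22.3 and 20.2 CPM in control and 26.2, 21.5 and 22.5 CPM in *Slc39a8*-NSKO. Its groups overlapped, and the log2 fold change was 0.11 with a 95% interval from −0.09 to 0.31.

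*Btg2* (ENSMUSG00000020423, chr1:134075170-134079120, minus strand) restrains the cell cycle, recruits the CCR4-NOT deadenylase to RNAs and is known for promoting the differentiation of cerebellar granule cell precursors. Its control levels were 24.95, 22.5 and 20.6 CPM and its *Slc39a8*-NSKO levels 15.4, 19.2 and 18.01 CPM. The groups did not overlap, and *Slc39a8*-NSKO mouse 1 was the lowest. The mean was 77.3% of control, with a log2 fold change of −0.38 (SE 0.10, 95% interval −0.60 to −0.16, unadjusted p = 0.00264, adjusted p = 0.473, edgeR). The summed level of 8 granule cell markers was 5460 to 5640 CPM in control and 5470 to 5960 CPM in *Slc39a8*-NSKO. None of those markers passed the test, 1 was higher at an unadjusted p below 0.05 (edgeR) and none was lower. Markers of the precursors were not listed apart.

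The GADD45 proteins are small stress adaptors that bind MAP3K4 and PCNA and have been linked to DNA demethylation at activity-regulated promoters in neurons. *Gadd45g* (ENSMUSG00000021453, chr13:51846678-51848468, plus strand) had the lowest p of the 10 genes. Its levels were 40.3, 43.2 and 48.1 CPM in control and 30.1, 35.8 and 33.9 CPM in *Slc39a8*-NSKO. The highest *Slc39a8*-NSKO mouse lay below the lowest control, and the mean was 75.9% of control. The log2 fold change was −0.40 (SE 0.08, 95% interval −0.58 to −0.21, unadjusted p = 0.000391, adjusted p = 0.156, edgeR), the 41st lowest p of the genes tested. *Gadd45b* (ENSMUSG00000015312, chr10:80930073-80932204, plus strand) was at 14.5, 11.6 and 13.6 CPM in control and at 11.7, 16.6 and 15.3 CPM in *Slc39a8*-NSKO. Its groups overlapped, and its log2 fold change of 0.13 had a 95% interval from −0.16 to 0.41. *Gadd45a*, the family's p53-responsive member, stood at 9.85 ± 1.23 CPM in control and 10.9 ± 0.680 in *Slc39a8*-NSKO, also with overlap.

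*Trib1* (ENSMUSG00000032501, chr15:59648350-59657099, plus strand) encodes a pseudokinase that brings C/EBPα to the ubiquitin ligase COP1. The control mice had 27.7, 28.7 and 31.8 CPM of *Trib1*, and the *Slc39a8*-NSKO mice 24.4, 21.3 and 25.9 CPM. There was no overlap, with a log2 fold change of −0.30 (SE 0.09, unadjusted p = 0.00480, adjusted p = 0.612, edgeR). *Ier3* (ENSMUSG00000003541, chr17:35821684-35822923, plus strand), a target of NF-κB that bears on cell survival, was at 11.9, 9.18 and 10.3 CPM in control and 9.76, 10.6 and 10.7 CPM in *Slc39a8*-NSKO. All 3 of its *Slc39a8*-NSKO values lay within the control range. The log2 fold change was −0.02 with a 95% interval from −0.29 to 0.24.

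**Figure D2:**
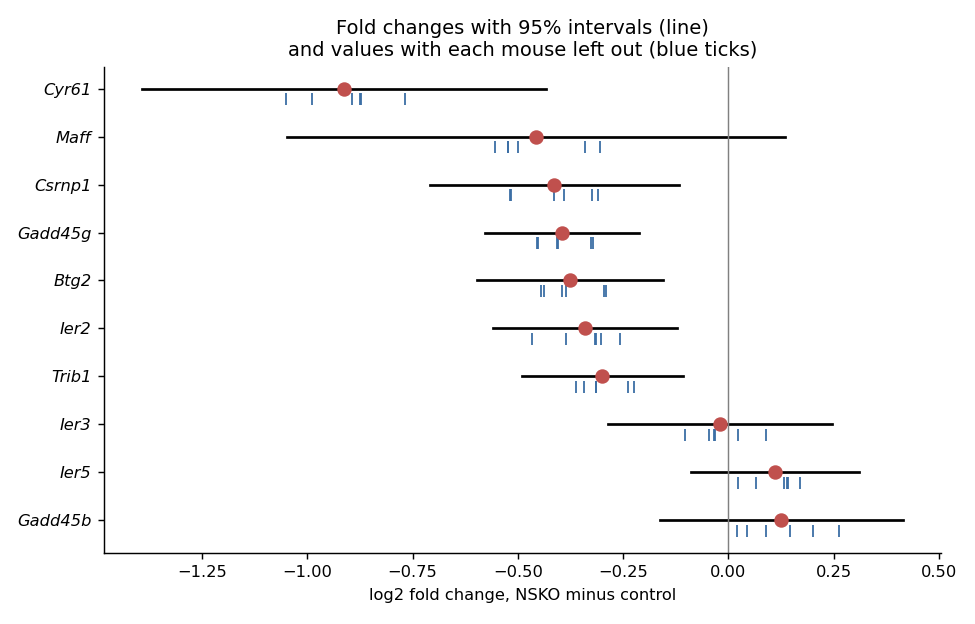
Log2 fold change of each gene in *Slc39a8*-NSKO against control (points), its 95% interval from edgeR (lines) and the fold changes obtained with each of the 6 mice left out (ticks). The intervals of *Cyr61*, *Csrnp1*, *Gadd45g*, *Btg2*, *Ier2* and *Trib1* lie below 0, those of *Maff*, *Ier3*, *Ier5* and *Gadd45b* include 0, and with a mouse left out the sign turned for *Ier3* alone.

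Averaged over the 10 genes after each was centred on its own mean log2 CPM, the control mice stood at 0.20, 0.12 and 0.11 and the *Slc39a8*-NSKO mice at −0.27, −0.10 and −0.07. *Slc39a8*-NSKO mouse 1 was the lowest and mouse 3 the nearest to the controls. The summed level of the 10 genes was 186 to 190 CPM in control and 148 to 166 CPM in *Slc39a8*-NSKO. By the root mean square distance of centred log2 CPM over the 6 mice, the genes that followed this average most closely were *Zfp641* (0.0304), *Rnf225* (0.0343), *Pon2* (0.0350), *Rbm12b1* (0.0389) and *Prom2* (0.0444), out of 16320 genes compared. The members' own distances ran from 0.0789 for *Btg2* to 0.324 for *Cyr61*.

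Within families, log2 count ratios in the same mouse compare 2 genes without any scaling between libraries; the pairs were chosen after the values were seen, so the ratios are given without a test. *Gadd45g* over *Gadd45b* was 1.48, 1.89 and 1.82 in the 3 control mice, against 1.36, 1.11 and 1.15 in *Slc39a8*-NSKO. *Ier2* over *Ier5* was 0.33, 0.35 and 0.34 in the controls, against −0.46, −0.07 and 0.17 in *Slc39a8*-NSKO. In both pairs every *Slc39a8*-NSKO ratio was below every control ratio, with mean differences of −0.52 and −0.46. The same held for *Gadd45g* over *Gadd45a*, *Btg2* over *Btg1*, *Cyr61* over *Ctgf*, *Trib1* over *Trib2* and *Csrnp1* over *Csrnp2*, with mean differences from −0.86 (*Cyr61* over *Ctgf*) to −0.26 (*Trib1* over *Trib2*). The numerators are genes already described as lower, so these ratios largely restate their values. *Btg2* over *Tob2* differed by −0.06 and *Maff* over *Mafg* by −0.51, each with overlap.

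**Figure D3:**
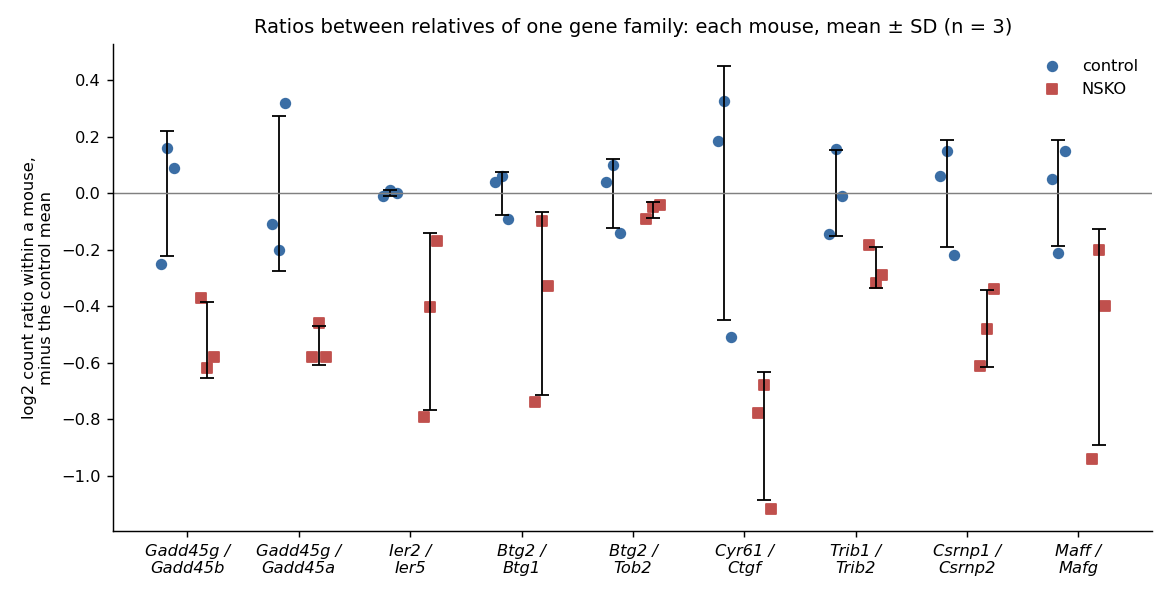
Log2 ratio of the counts of 2 relatives within each mouse, minus the mean control ratio of that pair (points; lines show mean and SD of 3 mice). The groups overlap for *Btg2* over *Tob2* and *Maff* over *Mafg* and not for the other pairs, whose numerators are genes with lower means in the plot of levels by mouse.

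Beyond these pairs, none of the 16 tested family relatives (of 18 listed) passed the test (1 was lower at an unadjusted p below 0.05), and their median log2 fold change was 0.06. The relative with the lowest p was *Tob2*, an antiproliferative gene of the *Btg2* family, at 119 ± 8.81 CPM in control and 95.7 ± 8.83 in *Slc39a8*-NSKO, without overlap (log2 fold change −0.31, adjusted p = 0.271, edgeR). The 27 partners and effectors of the 10 proteins, such as subunits of the CCR4-NOT complex, integrins, *Map3k4* and *Hsf1*, included none that passed (1 lower and 2 higher at an unadjusted p below 0.05), with a median of −0.00011. *Bach2*, a partner of the small Maf proteins, had the lowest p (log2 fold change −0.48, adjusted p = 0.860, edgeR). None of 23 upstream regulators passed either (2 lower and 1 higher at an unadjusted p below 0.05), with a median of −0.03; *Crem*, a cAMP-responsive factor of the CREB family, had the lowest p (−0.33, adjusted p = 0.860, edgeR).

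Of 14 *Fos*, *Jun*, *Egr* and *Nr4a* genes, 12 were tested and 6 passed, all lower, and the median log2 fold change of the 12 was −1.04. No *Jun* or *Egr* gene passed (*Jun*, *Junb*, *Egr1* and *Egr4* were lower at an unadjusted p below 0.05, edgeR). The transcription factor genes *Fos*, *Fosb* and *Fosl2* fell, with log2 fold changes of −1.91, −2.65 and −1.36 (adjusted p = 5.8e-04, 0.00228 and 0.00100, edgeR). The orphan nuclear receptors *Nr4a1*, *Nr4a2* and *Nr4a3* fell as well, with log2 fold changes of −1.49, −1.81 and −2.08 (adjusted p = 9.5e-05, 6.5e-05 and 1.9e-04, edgeR). Of the 10 genes, *Cyr61* at −0.91 came nearest to these values, and every one of the 10 was smaller in size than the smallest of the 6. Among 25 further rapid genes, 2 passed, both lower: *Sik1*, a kinase that restrains CREB coactivators (−0.89, adjusted p = 0.00723, edgeR), and the clock gene *Per1* (−0.59, adjusted p = 0.0435, edgeR). Their list had a median of −0.17. Whether the 10 genes differed from these lists was not tested.

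**Figure D4:**
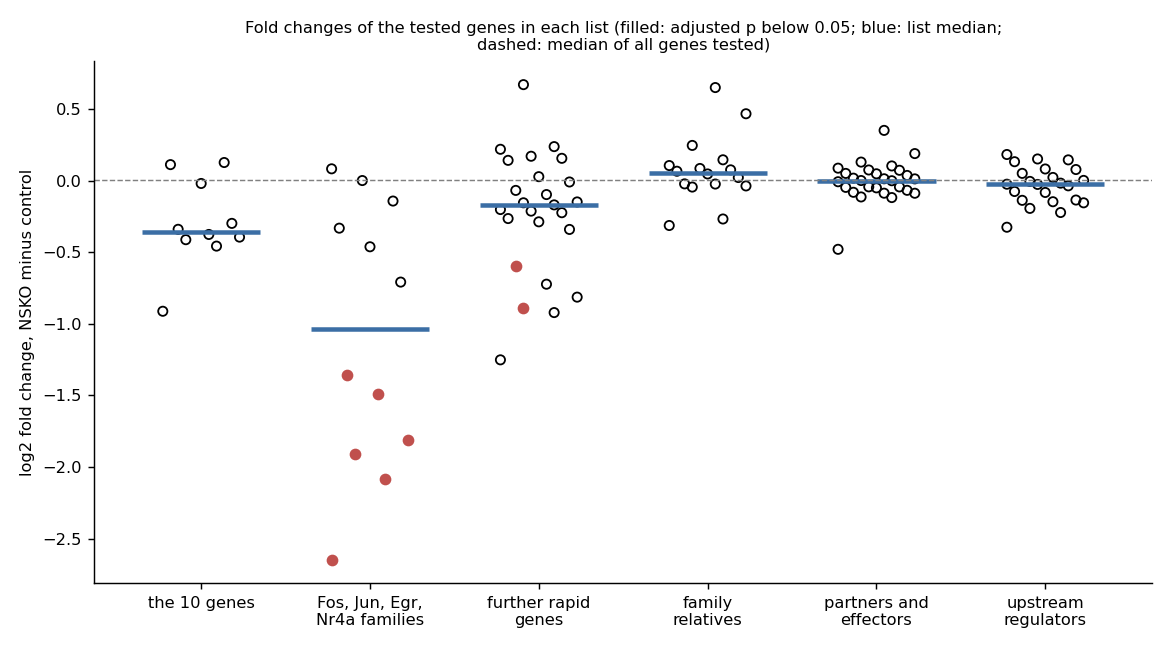
Log2 fold change in *Slc39a8*-NSKO against control of every tested gene in 6 lists (open circles, adjusted p of at least 0.05; filled, below 0.05), with each list's median (thick line) and the median of all genes tested (dashed). The 10 genes have a median of −0.36 and none that passed, the *Fos*, *Jun*, *Egr* and *Nr4a* families a median of −1.04 and 6 that passed, and the medians of relatives, partners and regulators lie between −0.03 and 0.06.

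Among the other cell types, the summed marker levels of 3 did not overlap between the groups, and sums were not tested. The summed level of 9 Bergmann glia and astrocyte markers was 3430 to 3830 CPM in control and 3900 to 4010 CPM in *Slc39a8*-NSKO, and that of 8 microglial markers was 119 to 133 and 139 to 141 CPM. The 6 meningeal fibroblast markers summed to 77.9 to 79.6 and 81.3 to 98.7 CPM. None of the markers in these 3 lists passed the test. At an unadjusted p below 0.05 (edgeR), 4 Bergmann glia and astrocyte, 3 meningeal and 1 microglial marker were higher, and none was lower. Of the 16330 genes tested, 368 were higher at that p. All 3 sums were higher in *Slc39a8*-NSKO without overlap, and their part in the lower values of the 10 genes was not tested. The meningeal sum without its most abundant gene, *Col1a2*, overlapped (48.1 to 52.3 and 51.8 to 65 CPM). Of 7 choroid plexus markers none passed the test, 3 were higher at an unadjusted p below 0.05, none was lower, and the median log2 fold change was 0.35. Their sum was 780 to 1120 CPM in control and 911 to 1560 in *Slc39a8*-NSKO, most of it *Ttr*, and 54.4 to 74.5 and 63.4 to 91.1 CPM without *Ttr*; *Folr1* had no overlap (2.34 ± 0.332 and 4.58 ± 1.06 CPM). Markers of oligodendrocytes (8340 to 9520 against 7760 to 9370 CPM) and erythroid cells (234 to 535 against 349 to 556 CPM) had overlapping sums.

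The promoters of the genes were searched for sites bound by CREB and SRF, the AP-1 site and the TATA box. Sites linked to the other factors named above, such as YAP, NF-κB and p53, were not searched. RefSeq promoter windows of GRCm38.p6 each ran from 250 bases before the start of transcription to 50 after it. They were at hand for 8 of the 10 genes, 13 windows in all, and *Ier2* and *Trib1* had none. In 9 of the 13, the last 100 bases held the start of an annotated protein-coding transcript of the gene. The cAMP response element TGACGTCA, bound by CREB, was found in 2 of the 13 (15.4%), against 508 of all 32851 windows (1.55%); per gene this was 2 of 8 (25%) against 1.77%. These are the promoters of *Btg2*, at 166 to 159 bases before the start, and of *Maff*, at 29 to 22 bases before the second of its starts, which lies in an intron of a longer *Maff* transcript. They are shown because they hold the only full elements in the 13 windows; capitals mark the element, and both are written on the strand of the gene. The intervals are chr1:134079156-134079335 (minus strand) and chr15:79347400-79347519 (plus strand).
Btg2: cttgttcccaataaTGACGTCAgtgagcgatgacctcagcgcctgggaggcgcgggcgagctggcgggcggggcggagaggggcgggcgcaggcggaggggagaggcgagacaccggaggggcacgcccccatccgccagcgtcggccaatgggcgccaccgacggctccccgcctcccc
Maff: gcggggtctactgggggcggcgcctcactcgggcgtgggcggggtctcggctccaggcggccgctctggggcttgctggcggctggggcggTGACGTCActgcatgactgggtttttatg

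The core TGACG of this element, searched on both strands and also met within the full element, was found in 8 of 13 windows (61.5%), those of *Btg2*, *Cyr61*, *Csrnp1* and *Maff*, against 17.8% of all windows. *Csrnp1* alone supplied 4 of the 8; per gene the share was 4 of 8 (50%) against 19.8%. The log2 fold changes of these 4 genes were below 0, as were those of *Gadd45g* and *Ier3*, whose windows held no core, while *Ier5* and *Gadd45b*, also without it, were above 0. The *Fos*, *Jun*, *Egr* and *Nr4a* windows held it in 10 of 15 (66.7%) and the full element in none. The AP-1 site TGANTCA was found in 1 of the 13 (*Csrnp1*; 6.75% of all windows), and the CArG box bound by SRF in none (1.47%). *Cyr61*, the gene with the largest fold difference, is shown for its core match at 58 to 54 bases before the start, which reads CGTCA on the strand of the gene (capitals; chr3:145649986-145650105, minus strand).
Cyr61: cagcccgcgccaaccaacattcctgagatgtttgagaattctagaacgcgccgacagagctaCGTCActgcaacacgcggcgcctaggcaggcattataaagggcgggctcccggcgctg

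A TATA box, TATAAA or TATATA on the strand of the gene, was found in 4 of the 13 windows (30.8%), against 11.5% of all windows, or in 4 of 8 genes (50%) against 13.4%. The 4 genes were *Cyr61*, *Gadd45b*, *Gadd45g* and *Ier5*, of which *Cyr61* and *Gadd45g* had lower values without overlap and the other 2 overlapped. *Gadd45g* and *Gadd45b* are shown side by side because they are close relatives of which one had no overlap between the genotypes and the other did. Capitals mark the TATA box, at 27 to 22 bases before the start in *Gadd45g* (chr13:51846555-51846674, plus strand) and 46 to 41 in *Gadd45b* (chr10:80929971-80930090, plus strand). The printed *Gadd45b* bases run into the gene interval given above, which begins at 80930073. Those of *Gadd45g* end before its interval begins at 51846678, so the 2 distances are counted from unlike starts and cannot be compared.
Gadd45g: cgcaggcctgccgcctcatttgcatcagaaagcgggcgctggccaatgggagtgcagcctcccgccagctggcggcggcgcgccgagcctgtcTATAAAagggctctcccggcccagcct
Gadd45b: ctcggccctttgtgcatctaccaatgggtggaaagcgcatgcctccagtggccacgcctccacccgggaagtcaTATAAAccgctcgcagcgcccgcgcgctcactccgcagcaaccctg

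A match is a run of letters and does not show that a factor binds there. The 10 genes were short, spanning 1.24 kb (*Ier3*) to 13.5 kb (*Csrnp1*) with a median of 3.14 kb, against a median of 25.4 kb over the 14025 protein-coding genes tested, of which 5.3% were shorter than the median of the 10. The *Fos*, *Jun*, *Egr* and *Nr4a* genes tested had a median of 6.26 kb. The pentamer ATTTA, the core of elements that mark unstable RNAs, occurred in the 3′ UTR of 6 of the 10 (60%), against 70.5% of protein-coding genes tested. The longer TATTTAT occurred in 5 of the 10 (50%), against 30.8%, and the median density of ATTTA was 1.6 per kb, against 1.31. It was densest in *Ier3* (5 copies, 8.16 per kb) and *Cyr61* (5 copies, 7.25 per kb), which had the smallest and the largest fold difference of the 10. *Ier2*, *Gadd45b*, *Gadd45g* and *Trib1* had no copy in their 3′ UTR, so that genes with and without it were found among those with lower values.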

How the data were processed

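Total RNA of 6 cerebella (3 per genotype; integrity number above 7.2) was reverse-transcribed with oligo-dT and sequenced in pairs. The submitters' processing notes name FastQC, STAR, RSEM and DESeq2 and the build mm10, with no versions; whether counting used strand is not given in the sources used here. The authors deposited expected counts for each gene and library, not scaled for library size or gene length. Samples were grouped by their genotype labels. The 92 spike-in sequences, with at most 5 counts in a mouse, were left out, and 53620 of 53715 genes were named through the GENCODE annotation of GRCm38.

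Expected counts were rounded and tested in R 4.3.3 with edgeR 4.0.16 (quasi-likelihood test, TMM normalization, filterByExpr, no covariate), with Benjamini-Hochberg adjustment over the 16330 genes kept and a threshold of 0.05. The code was tested on simulated data. CPM values use TMM library sizes, centred log2 CPM a prior count of 2, and count ratios a pseudocount of 0.5. No pair of libraries agreed within counting noise. Alternatives used DESeq2 1.42.0, limma 3.58.1 (voom), other scalings, other filters, counts not rounded, a replicate block, a threshold of 0.1, each mouse left out and, chosen after seeing the data, edgeR's newer dispersion method. Motifs were searched on both strands except the TATA box.

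The 10 genes and all gene lists were chosen with earlier results of these data known. Genes named were the 10, *Slc39a8*, the genes past the threshold in each of the 5 gene lists (or, with none, the gene with the lowest p) and the 5 genes nearest to the average profile. *Cx3cr1*, the relatives in count ratios, list examples, *1700019L13Rik* and the heart muscle, meningeal and choroid plexus markers were named after their values were seen.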

Additional observations from a re-analysis of the deposited data

How the results depend on the processing

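Under all alternatives run, 8 of the 10 genes kept a lower mean in *Slc39a8*-NSKO, except that *Ier3* turned, to 0.089 without control 1 and 0.02 without *Slc39a8*-NSKO mouse 1 (range with a mouse left out −0.10 to 0.09). At an unadjusted p below 0.05, 6 of the 10 genes were lower under each alternative. Genes of either direction at that p ranged from 533 (DESeq2) to 1483 (no filter), each of 27187 tested. They numbered 1429 of 16621 without control 1 and 1215 of 16330 with the replicate block. Over all genes, those lower at that p were not counted apart for the alternatives, so no matching share is given. With a mouse left out, 6 to 7 of the 10 had no overlap. With fewer mice the groups separate more easily, and the share over all genes was not computed for those settings, so this count does not measure robustness. The count of genes past the threshold was 37 with DESeq2, 178 with no filter (of 27187), 41 with the replicate block, 27 at an adjusted p below 0.1, 14 with edgeR's newer dispersion method, and 9 to 38 with a mouse left out. Members past the threshold numbered 4 with no filter (*Btg2*, *Ier2*, *Cyr61* and *Gadd45g*, adjusted p = 0.030, 0.0391, 0.0335 and 2.8e-04, edgeR), 1 with the replicate block (*Gadd45g*, log2 fold change −0.40, adjusted p = 0.0458, edgeR) and 0 under every other alternative, where the lowest adjusted p ran from 0.0591 (DESeq2) to 0.510 (without *Slc39a8*-NSKO mouse 1); the cause was not tested. Replicate numbers were not taken to pair the mice, as the labels number the replicates without naming pairs. Deviations from the group mean correlated at 0.142, 0.116 and 0.0104 for same-numbered mice, against −0.177 to 0.0665 for mice with different numbers. Controls 1 and 2 correlated best with the same-numbered *Slc39a8*-NSKO mouse and control 3 with mouse 1. These values do not settle whether the mice were paired. Counts under 100 per mouse limit *Maff* and *Cyr61*.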
